A study of Ovis aries with 10 samples.

Results

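The genes described here are those of mitosis and of the spindle checkpoint, 42 symbols chosen by name with earlier results of these data known. Of these, 37 were found among the 19316 rows of the authors' deposited table and 5 (MKI67, CCNB1, KIF11, CENPA and KIF4A) were not. Each of the 37 had 1 row, and each had a p-value. RNA came from adrenal glands of sheep fetuses at 102 days of gestation, in 10 libraries. The control group held 5 libraries from fetuses under saline injection. The endotoxin group held 5 libraries from fetuses under injection of endotoxin, the lipopolysaccharide of Gram-negative bacteria, which sets off inflammation. Both sexes were present in each group, and the labels state neither the site of injection nor the breed, and do not say whether each library is a separate fetus. The libraries held 12494386 to 18324516 estimated counts.

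Mitosis separates copied chromosomes into daughter cells. CDK1 with its cyclins starts it, kinetochores attach chromosomes to spindle microtubules, and the spindle checkpoint holds back the anaphase-promoting complex (APC/C), a ubiquitin ligase, until every chromosome is attached. Most genes of this programme are transcribed in late S, G2 and M phase and are nearly silent in resting cells, so that their transcripts mark dividing cells in a tissue. The fetal adrenal is a growing gland, in which dividing cells are known mainly from the outer cortex.

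The named values are the authors' means of each group in TPM (a unit of abundance per transcript length, on a common total for every library), and no value per library carries a gene symbol in the tables used here. Log2 fold changes, endotoxin minus control, were computed as the score of the authors' count model times its standard error (SE), both columns of their deposited table. Its own log2 column is instead the log2 ratio of mean TPM plus 1, which understates low genes, and is called the TPM plus 1 scale. A fold change given per the table is the product of score and SE unless that scale is named. Adjusted p-values are Benjamini-Hochberg values with a threshold of 0.05. The table calls its groups A and B. B was read as endotoxin from the series title and from the labelled TPM table, in which 16 genes were at least 8-fold higher and 3 at least 8-fold lower with endotoxin, against 19 higher and 3 lower in B (ratios of mean TPM plus 1, for means of at least 1 TPM). If that reading were wrong, every direction below would turn. The tissue label was checked on marker genes. The 8 adrenal cortex markers summed to 4122 TPM and the 5 measured chromaffin cell markers to 8882 TPM in controls, and none was listed at 0.

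Every measured mitotic gene had a lower mean in the adrenals of endotoxin-exposed fetuses than in controls, where 63.9% of all rows with a p did. By the authors' deposited table, 16 of the 37 measured genes fell, none rose and 21 did not pass the threshold, where 0.426% of all 19236 rows with a p fell, 1.29% rose and 1.72% changed in either direction. All 37 had a log2 fold change below 0, against 49.1% of all rows in the authors' deposited table (48.3% of those whose mean reached 1 TPM), and their median was -0.59 against 0.01 over all rows whose mean reached 1 TPM. Because the set was chosen with earlier results of these data known, these contrasts with all rows describe it and do not test it. Together the 37 genes went from 352 TPM in the control mean to 215 TPM in the endotoxin mean, 39.0% lower. The 2 most abundant, UBE2C and BIRC5, were not alone in this, since the other 35 went from 239 to 150 TPM. RNA was taken from whole tissue, so fewer dividing cells and less mitotic RNA per cell cannot be told apart.

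**Figure D1:**
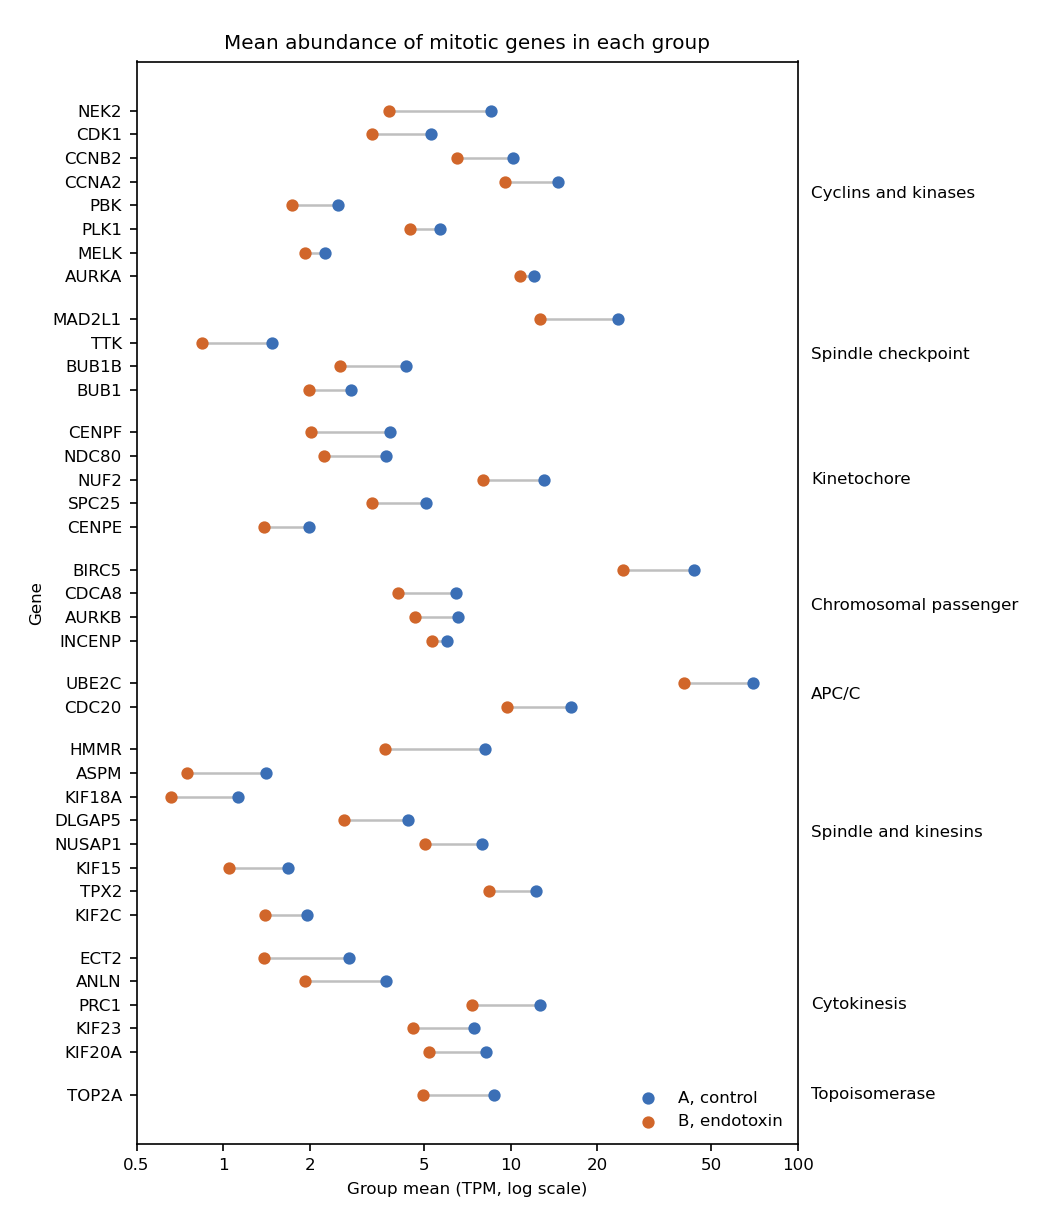
Authors' group means of the 37 measured mitotic genes in TPM on a log axis, with genes grouped by role; blue points are group A (control) and orange points group B (endotoxin), 1 mean per group with no spread between libraries. For every gene the endotoxin point lies to the left of the control point, by 10.3% (AURKA) to 55.9% (NEK2).

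Among the cyclins and mitotic kinases 2 of 8 measured genes fell, and this was the group with the widest range. NEK2, a kinase that helps to separate the centrosomes, went from 8.58 to 3.78 TPM in the authors' means. Its log2 fold change of -1.08 ± 0.20 (SE; adjusted p = 5.63e-05) was the largest of the 37 genes in the authors' deposited table, where its score ranked second lowest of all rows. CDK1, the kinase that drives entry into mitosis, went from 5.28 to 3.31 TPM, with a log2 fold change of -0.57 ± 0.15 (SE; adjusted p = 0.0147) per the authors' deposited table. Its partners cyclin B2 (CCNB2, 10.2 to 6.51 TPM) and cyclin A2 (CCNA2, 14.6 to 9.54 TPM) were at -0.54 ± 0.21 and -0.54 ± 0.22 (adjusted p = 0.174 and 0.225) per the authors' deposited table. The fold changes of the kinase and both cyclins thus spanned 0.03, and the SEs of the cyclins were larger. PBK, a kinase of dividing cells, was at -0.43 ± 0.17 (adjusted p = 0.201) per the authors' deposited table. PLK1, the polo-like kinase, was at -0.25 ± 0.16 (adjusted p = 0.555), and MELK, a kinase of proliferating and progenitor cells, at -0.11 ± 0.15 (adjusted p = 0.884), per the authors' deposited table. AURKA, the centrosomal Aurora kinase, had the smallest difference, from 12.04 to 10.8 TPM. Its log2 fold change was -0.03 ± 0.19 (adjusted p = 0.978), with a 95% interval of -0.39 to 0.34, per the authors' deposited table, and -0.14 on the TPM plus 1 scale. The intervals of NEK2 (-1.48 to -0.68) and AURKA do not overlap, but the difference between the genes was not tested.

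Of the 4 spindle checkpoint genes 2 fell. MAD2L1, which as part of the checkpoint complex binds and inhibits CDC20, went from 23.7 to 12.7 TPM, a log2 fold change of -0.77 ± 0.23 (adjusted p = 0.0481) per the authors' deposited table. BUB1B, which encodes the BubR1 subunit of the same inhibitory complex, went from 4.32 to 2.56 TPM, or -0.65 ± 0.17 (adjusted p = 0.0124) per the authors' deposited table. MAD2L1 was thus the more abundant of these partners in both groups and the nearer to the threshold. TTK, the kinase that starts checkpoint signalling at kinetochores, went from 1.49 to 0.846 TPM and was at -0.68 ± 0.22 (adjusted p = 0.0668) per the authors' deposited table. On the TPM plus 1 scale TTK was at -0.43. BUB1, a checkpoint kinase at the kinetochore, was at -0.38 ± 0.16 (adjusted p = 0.234) per the authors' deposited table.

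The targets of the checkpoint belong to the APC/C. CDC20, the activator that the checkpoint restrains, went from 16.2 to 9.72 TPM, and at -0.65 ± 0.20 (adjusted p = 0.0612) it lay nearest to the threshold of the genes that missed it in the authors' deposited table. UBE2C, the ubiquitin-conjugating enzyme of the APC/C, was the most abundant of the 37 genes, at 69.8 TPM in controls and 40.2 TPM with endotoxin. It fell by a log2 fold change of 0.72 ± 0.21 (adjusted p = 0.0432) per the authors' deposited table. A separate list of 14 measured genes held core subunits and other regulators of the APC/C, together with ESPL1. None of them passed the threshold in the authors' deposited table, where the smallest adjusted p was 0.485, for ESPL1, the separase that cuts cohesin, at -0.41 ± 0.24. Their median log2 fold change was 0.03 on the scale of the authors' count model and -0.08 on the TPM plus 1 scale. Relative to all rows whose mean reached 1 TPM it was 0.01 and 0.02, so it lay near their median on both scales.

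Kinetochore and centromere genes gave 2 falls in 5. CENPF, a large kinetochore protein of G2 and M phase, went from 3.82 to 2.02 TPM, a log2 fold change of -0.81 ± 0.19 (adjusted p = 0.00274) per the authors' deposited table. NDC80, NUF2 and SPC25 encode partners in the NDC80 complex, which grips microtubules. NDC80 went from 3.70 to 2.24 TPM, or -0.62 ± 0.16 (adjusted p = 0.0152), per the authors' deposited table. NUF2 went from 13.1 to 8.04 TPM, or -0.59 ± 0.19 (adjusted p = 0.0826), and SPC25 from 5.08 to 3.30 TPM, or -0.55 ± 0.26 (adjusted p = 0.335), per the authors' deposited table. The 3 partners differed in level (NUF2 at 3.54 times NDC80 in controls and 3.59 times with endotoxin), and their fold changes spanned 0.07, less than the SE of any of them. CENPE, a kinetochore motor, was at -0.44 ± 0.22 (adjusted p = 0.371) per the authors' deposited table.

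The chromosomal passenger complex, which corrects faulty attachments, was the one role in which none of the measured genes, here 4, passed the threshold. The median log2 fold change of these 4 was -0.50, against -0.48 for the cyclins and kinases, of which 2 of 8 fell. Their median SE of 0.22 was the highest among the roles, and roles were not tested against each other. BIRC5 (survivin), the second most abundant of the 37 genes, went from 43.4 to 24.6 TPM. It was at -0.75 ± 0.24 (adjusted p = 0.0724) per the authors' deposited table, a larger fold change than that of 9 of the 16 genes that fell, with a larger SE than any of those 16. CDCA8 (borealin) was at -0.56 ± 0.22 (adjusted p = 0.195) and AURKB, the catalytic subunit, at -0.43 ± 0.22 (adjusted p = 0.405) per the authors' deposited table. INCENP, the scaffold, went from 6.03 to 5.31 TPM and was at -0.08 ± 0.13 (adjusted p = 0.928, 95% interval -0.34 to 0.19) per the authors' deposited table.

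Among 8 spindle proteins and kinesins 4 fell. HMMR, a spindle pole protein and hyaluronan receptor, went from 8.17 to 3.67 TPM, a log2 fold change of -1.04 ± 0.22 (adjusted p = 0.000514) per the authors' deposited table. HMMR and NEK2 were the 2 genes of the 37 past a 2-fold fall. ASPM, a spindle pole protein that shapes divisions of progenitors, went from 1.41 to 0.750 TPM, or -0.78 ± 0.15 (adjusted p = 0.000162), per the authors' deposited table, and was at -0.46 on the TPM plus 1 scale. DLGAP5, which stabilises kinetochore fibres, fell by 0.63 ± 0.18 (adjusted p = 0.0383) and NUSAP1, a microtubule bundling protein, by 0.57 ± 0.17 (adjusted p = 0.0434) per the authors' deposited table. TPX2, the spindle activator of AURKA, was at -0.43 ± 0.17 (adjusted p = 0.184) per the authors' deposited table. The 3 measured kinesins of this role did not pass. KIF18A, which limits chromosome oscillation, was at -0.66 ± 0.22 (adjusted p = 0.0904) and at -0.36 on the TPM plus 1 scale. KIF15, a spindle motor, was at -0.55 ± 0.19 (adjusted p = 0.108), and KIF2C, a depolymerase of microtubules, had the smallest fold change of the role at -0.40 ± 0.20 (adjusted p = 0.372), per the authors' deposited table.

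Genes of cytokinesis, the final cut between daughter cells, fell in 4 of 5 cases, the largest share among the roles with more than 1 measured gene. Their median log2 fold change of -0.689 was near that of CDC20 and UBE2C (-0.686, 1 of 2 fell). It was also near that of the spindle checkpoint genes (-0.669, 2 of 4 fell), and differences between roles were not tested. ECT2, the exchange factor that activates RhoA at the cell equator, went from 2.75 to 1.39 TPM, a log2 fold change of -0.88 ± 0.18 (adjusted p = 0.000428) per the authors' deposited table. ANLN (anillin), a scaffold of the contractile ring, went from 3.69 to 1.92 TPM, or -0.84 ± 0.19 (adjusted p = 0.00181), per the authors' deposited table. KIF23, a motor of the centralspindlin complex that recruits ECT2, went from 7.48 to 4.57 TPM, or -0.61 ± 0.15 (adjusted p = 0.00491), per the authors' deposited table. PRC1, which bundles the midzone microtubules, went from 12.7 to 7.36 TPM, or -0.69 ± 0.19 (adjusted p = 0.0193), per the authors' deposited table. KIF20A, a midzone kinesin, was at -0.57 ± 0.18 and missed the threshold (adjusted p = 0.0631) per the authors' deposited table. TOP2A, the topoisomerase that untangles sister chromatids and a common marker of cycling cells, fell by 0.72 ± 0.18 (adjusted p = 0.00817) per the authors' deposited table, from 8.79 to 4.96 TPM.

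**Figure D2:**
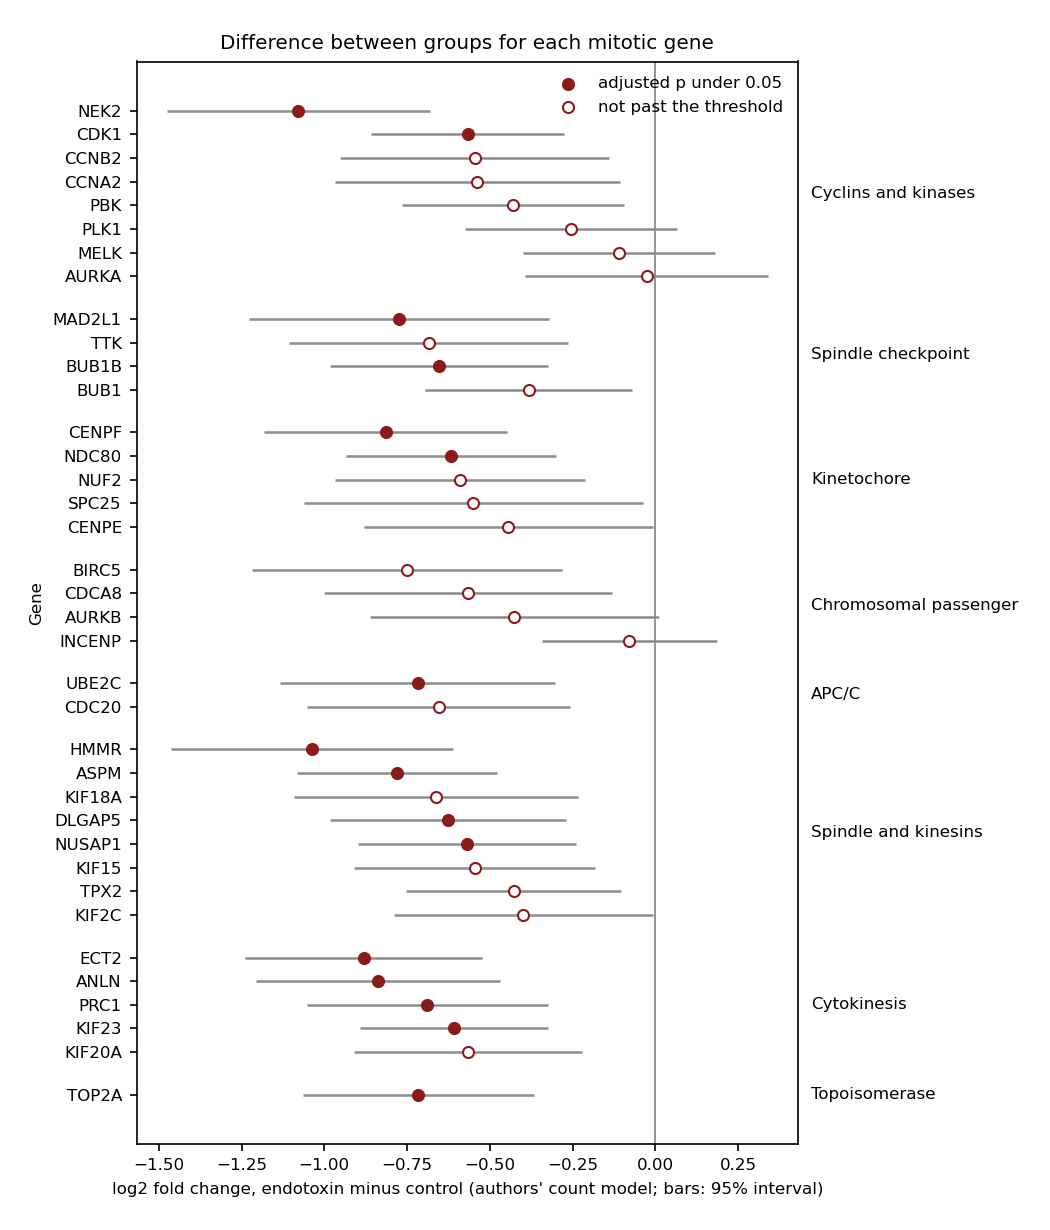
Log2 fold change of each mitotic gene, endotoxin minus control, from the authors' count model, with 95% intervals as bars; filled points have an adjusted p under 0.05 and open points do not. The 16 filled points lie between -1.08 (NEK2) and -0.57 (CDK1), and the intervals of 5 open points (PLK1, MELK, AURKA, AURKB and INCENP) reach 0.

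The 16 genes that fell had log2 fold changes from -1.08 to -0.57 per the authors' deposited table, which is 32.5% to 52.6% lower, with a median of -0.72 and a median SE of 0.18. The 21 others ran from -0.75 to -0.03, with a median of -0.54 and a median SE of 0.20 per the authors' deposited table. Of these 21, 5 (BIRC5, TTK, KIF18A, CDC20 and NUF2) lay within the range of the genes that fell and 16 lay nearer 0. An adjusted p under 0.1 was reached by 6 of the 21 and missed by 15, while 16 had a 95% interval wholly below 0. Counted without adjustment, 32 of the 37 had a p under 0.05 per the authors' deposited table and were lower, where 5.35% of all rows were. Fold change had little relation to abundance over the 37 genes (Spearman's rho = -0.06 between mean TPM and log2 fold change, across genes that share the same libraries).

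Of the 82 rows that fell in the authors' deposited table, 67 carry a symbol and 16 are the genes described here, 19.5% of the falling rows and 43.2% of the measured mitotic genes. Among the 20 rows with the lowest score 8 were mitotic genes of this set, which holds 37 of the 19236 rows with a p. As the set was chosen with earlier results of these data known, these counts describe it and do not test it. The median score, which is the fold change over its SE, was -3.18 for the 37 genes, -0.95 for 25 measured genes of DNA replication and 0.02 over all rows in the authors' deposited table.

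**Figure D3:**
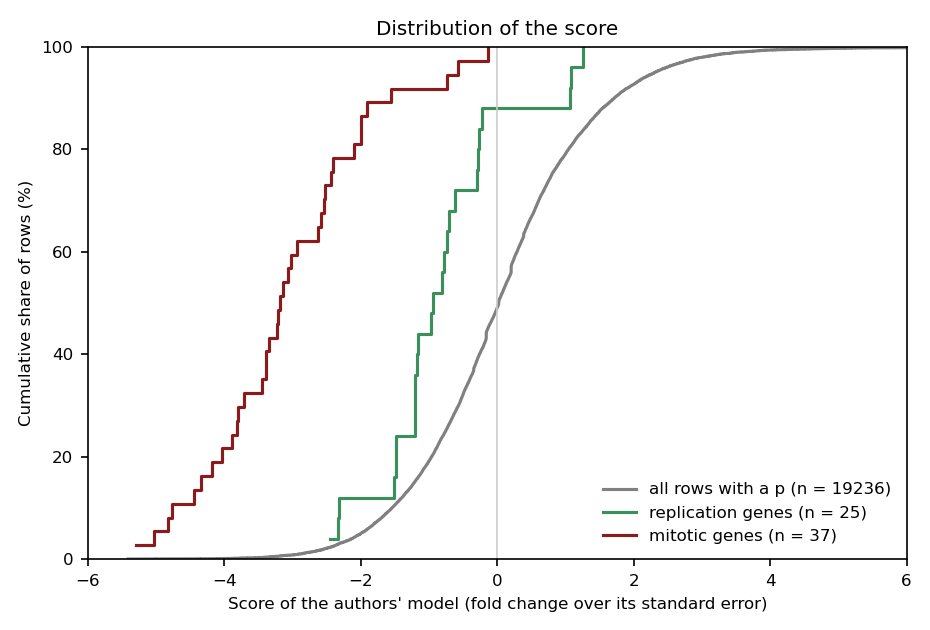
Cumulative share of rows (%) by the score of the authors' model, drawn from -6 to 6, for all 19236 rows with a p (grey), 25 replication genes (green) and the 37 mitotic genes (red). The red curve lies wholly below 0, from -5.30 to -0.14. Replication genes have scores from -2.45 to 1.26, and 27 of the 37 mitotic genes have a lower score than all of them. Among all 19236 rows, counted from the lowest score, PBK, the last of these 27, ranked 396 and CCNA2, the next mitotic gene, 455. Both lists were chosen with earlier results of these data known, so the separation describes them and was not tested.

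Other lists of cell cycle genes had medians nearer 0, which were not tested against that of the mitotic genes. Of 40 further kinetochore, centromere and spindle genes 2 fell and none rose in the authors' deposited table, and 35 were below 0, with a median of -0.34. CKAP2, a spindle-associated protein, had the lowest score of all rows in the authors' deposited table, with a log2 fold change of -0.85 ± 0.16 (adjusted p = 3.55e-05), from 17.6 to 8.94 TPM. KNL1, the kinetochore platform for the BUB proteins, was at -0.80 ± 0.20 (adjusted p = 0.00868) per the authors' deposited table, from 1.12 to 0.590 TPM, and at -0.41 on the TPM plus 1 scale. None of 15 condensin and cohesin genes passed in the authors' deposited table, and their median was -0.25. The condensin subunit NCAPG was nearest the threshold, at -0.51 ± 0.17 (adjusted p = 0.0874) per the authors' deposited table. None of the 25 replication genes passed in the authors' deposited table, although 22 were below 0, and their median was -0.17. POLA1, a subunit of the polymerase that primes replication, had the smallest p among them, at -0.27 ± 0.11 (adjusted p = 0.221) per the authors' deposited table.

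Most genes listed as regulators of the cell cycle were below 0 as well, with 1, CDKN3, past the threshold. None of 18 transcription factors and partners of the FOXM1, E2F and DREAM groups passed in the authors' deposited table, where 13 were below 0 and the median was -0.25. FOXM1, the activator of many G2 and M phase genes, went from 5.43 to 3.28 TPM and was at -0.64 ± 0.22 (adjusted p = 0.103) per the authors' deposited table. None of 12 G1 cyclins, their kinases and CDC25 and WEE1 genes passed in the authors' deposited table, where 11 were below 0, and their median was -0.22. The smallest p among them was that of cyclin D3 (CCND3), the 1 gene of the list above 0, at 0.48 ± 0.20 (adjusted p = 0.242), per the authors' deposited table. Of 5 measured genes listed as inhibitors of cyclin-dependent kinases 4 were below 0 and 1 fell, CDKN3, at -0.87 ± 0.21 (adjusted p = 0.00647) per the authors' deposited table. CDKN3 is a phosphatase of these kinases and, unlike the classical inhibitors, is itself transcribed in G2 and M phase. The classical inhibitor p21 (CDKN1A) went from 77.4 to 61.0 TPM and was at -0.23 ± 0.28 (adjusted p = 0.856) per the authors' deposited table.

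**Figure D4:**
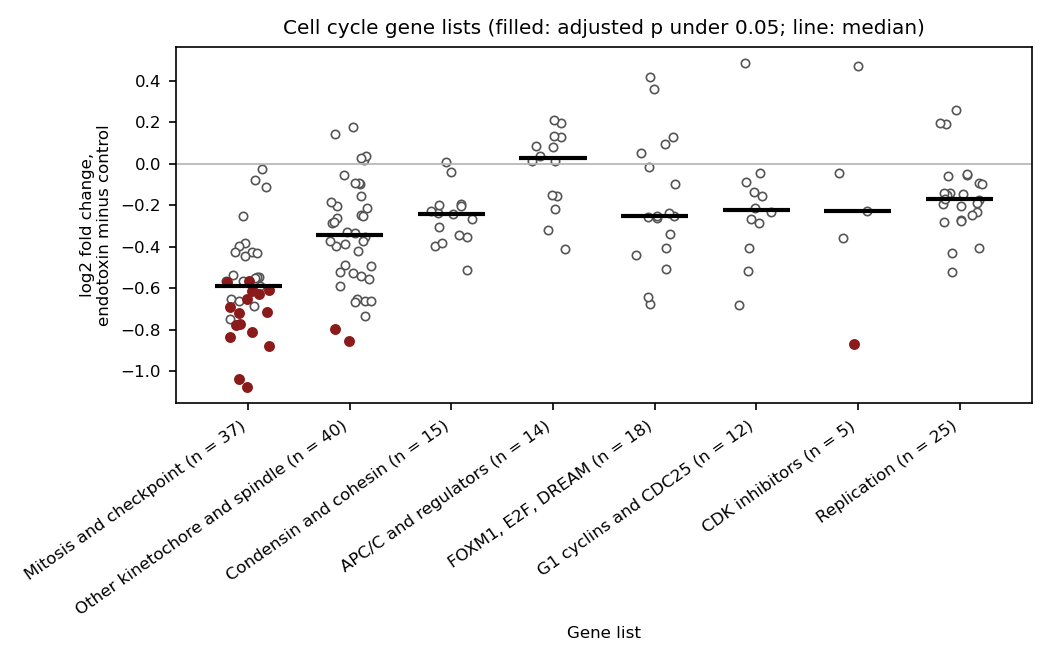
Log2 fold changes, endotoxin minus control, from the authors' count model for 8 lists of cell cycle genes; each point is a gene, filled where the adjusted p is under 0.05, and lines are medians. The mitosis list has the lowest median (-0.59) and 16 of the 19 filled points, and the list of the APC/C has a median of 0.03.

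The authors' deposited table of pathways lists the KEGG category Cell cycle with 4 changed genes of 104 (CDK1, BUB1B, MAD2L1 and the growth factor TGFB2) and an unadjusted p of 0.193, or 0.468 when adjusted over its 95 distinct categories. Only 5 of the 16 mitotic genes that fell (BUB1B, CDK1, KIF23, MAD2L1 and TOP2A) appear in any category of the authors' deposited table of pathways.

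Markers of other cells moved between the groups as well. All 7 measured neutrophil markers rose in the authors' deposited table, their sum going from 47.2 to 1922 TPM, and 5 of 8 cortex markers rose, their sum going from 4122 to 9118 TPM. The 5 measured fibroblast and matrix markers were all below 0 and none passed (adjusted p of at least 0.467) per the authors' deposited table, with a sum of 1576 TPM in controls and 1000 TPM with endotoxin. The sum of 6 erythroid markers went from 36.1 to 59.5 TPM, with 1 of 6 risen in the authors' deposited table. Of 4 macrophage markers, with sums of 28.3 and 35.1 TPM, 1 rose in the authors' deposited table. None passed among 5 chromaffin markers (8882 and 8427 TPM), 6 endothelial markers (128 and 140 TPM) and 5 Schwann and glial markers with a p (228 and 210 TPM) per the authors' deposited table. Of the 5 chromaffin markers 3 were above 0 and 2 below. PNMT went from 329.5 to 1306.5 TPM (adjusted p = 0.123 in the authors' count model), and CHGB from 3193 to 2116 TPM (adjusted p = 0.559). No measured marker was listed at 0 in controls. The part of these shifts in the lower means of the mitotic genes was not tested. TPM values are shares of a fixed total, and all rows that rose in the authors' deposited table went together from 12529 to 27596 TPM. The median of all rows of at least 1 TPM was -0.10 on the TPM plus 1 scale against 0.01 in the count model, and relative to these the median of the 37 mitotic genes was -0.46 and -0.60.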

How the data were processed

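Per the labels' protocols, the library kit was directional. Tools named in the submitters' processing notes, with no role stated, are DESeq2 (version not given), Salmon 0.9.1 and fastp 0.19.4, and the build named there is Oar_v3.1. The authors deposited estimated counts and TPM per library in separate tables, with 20781 cattle-type Ensembl gene IDs, of which 0 were in the gene table used as reference (RefSeq, ARS-UI_Ramb_v3.0) and 0 in the authors' table of comparisons. The mitotic genes could therefore not be given values per library, and the planned edgeR fit of them was not run. Estimated counts served for depth only. Names were not matched by value.

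The deposited table of comparisons holds, per the file headers, means of both groups with log2, standard error and score columns and raw and adjusted p-values. The means sum to 1000000 per group and were read as TPM. The deposited log2 column equals the log2 ratio of mean TPM plus 1, so fold changes were taken as score times standard error. The p-values equal the two-sided normal tail of the score, and the adjusted p-values are Benjamini-Hochberg values over 19236 rows. The 80 rows with both p-values set to 1 were treated as having none. The deposited pathway table gives numbers of genes per category and unadjusted p-values. Intervals of 95% are normal. The p-values set the difference between groups against the spread between these libraries. Whether each library is a separate fetus is not stated.

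The members and lists were chosen with earlier results of these data known. Named were all genes past the threshold, those of smallest p and smallest change in each role, and, from other lists, genes past the threshold or the smallest p; the remaining mitotic genes and CDKN1A were added to account for the set. Coordinates and sequences are not given, since the reference is another build. The code for adjustment and fold recovery was checked on simulated data. There the score was built as fold change over SE, so the check does not bear on that reading of the deposited columns. Values were computed with Python 3.11.15, pandas 2.3.3, numpy 2.4.6 and scipy 1.17.1.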

Additional observations from a re-analysis of the deposited data

How the results depend on the processing

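Leaving out single libraries was not possible, because the mitotic genes have no value per library in the tables used here, and they rest on 1 tool. No paired analysis was possible because the named values are group means, which carry no replicate numbers. The number of mitotic genes that fell was 22 at an adjusted p under 0.1 and 8 at an adjusted p under 0.01. It was 16, with the same 16 genes, when the adjustment was recomputed over the 14348 rows of at least 1 TPM. Recomputing it over all rows with a p repeats the deposited values, so that count of 16 was fixed in advance. All 37 were below 0 on the TPM plus 1 scale too, where 63.9% of all rows with a p were. The median fold change lay between -0.69 (pseudocount of 0.1 TPM) and -0.56 (TPM plus 1) under the alternatives run. On the TPM plus 1 scale 4 genes (ASPM, ECT2, TTK and KIF18A) moved by more than their SE, all toward 0. No gene had 2 rows, so choosing the lower row changed nothing. Promoter and protein motifs were not run, since no sequences were at hand.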

Other observations

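Among the 82 rows that fell, further genes known from dividing cells stood outside the lists and were picked after their values were seen, so they carry no test as a group. MYBL1, a MYB family transcription factor, was at -1.14 ± 0.22 (SE; adjusted p = 0.000155), and DEPDC1, a mitotic gene, at -1.07 ± 0.21 (adjusted p = 0.000196), per the authors' deposited table. ESCO2, the cohesin acetyltransferase, was at -0.74 ± 0.18 (adjusted p = 0.00591), SPAG5 (astrin), a spindle protein, at -0.53 ± 0.14 (adjusted p = 0.0122), and CKAP2L at -0.67 ± 0.17 (adjusted p = 0.0136), per the authors' deposited table. CIT, the citron kinase of cytokinesis, was at -0.56 ± 0.16 (adjusted p = 0.0412), and LMNB1, the nuclear lamin B1, at -0.41 ± 0.11 (adjusted p = 0.0259), per the authors' deposited table.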
